A study of Mus musculus with 8 samples.

Results

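The genes described here are 36 DNA repair and damage signalling genes, chosen by gene name from the 55880 genes of the deposited table and sorted by textbook function into 7 pathways. Their RNA was sequenced from small intestinal crypts, the pits of the gut lining where its stem cells sit, taken from mice before any irradiation. The 8 libraries carry the labels of C57BL/6N mice that were either wild type (4 libraries) or miR-29ab1-/-, lacking the genes of miR-29a and miR-29b-1 (4 libraries). The labels give no age, litter, day or batch and do not say how the deletion was made, so p-values measure the spread between these libraries, which may in part be technical. All 36 genes were found in the table and passed the filter on low counts.

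Cells meet DNA damage with sensor kinases that halt the cycle and with several repair systems. Homologous recombination copies the sister chromatid to mend double-strand breaks, and end joining ligates broken ends directly. Excision pathways remove damaged or mispaired bases, and the Fanconi pathway clears crosslinks between strands. Intestinal crypts hold rapidly dividing cells and are among the most radiation-sensitive tissues of the body. Recombination, Fanconi and mismatch repair genes are best known from dividing cells, whereas many end joining and excision genes are also used by cells that no longer divide.

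None of the 36 repair genes changed with the label. A gene was counted as changed at an adjusted p under 0.05 in edgeR's quasi-likelihood test, with Benjamini-Hochberg adjustment over all 14897 genes tested. By that rule 0 members were higher and 0 lower, against 3 of all genes tested (0.0201%, each of them higher in the group labelled knockout). DESeq2 and limma-voom also called 0 of the 36, against 0.148% and 0.0134% of all genes they tested. At an unadjusted p under 0.05 edgeR gave 1 member, Lig4, which was lower, against 2.7% of all genes tested (0.832% lower and 1.87% higher). No member had groups that did not overlap, which held for 1.53% of all genes tested (0.618% lower and 0.913% higher). The smallest adjusted p among the members was 0.994.

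The estimates leaned to the low side. Of the 36 members, 30 had a log2 fold change (labelled knockout minus wild type) below 0, with a median of -0.22, whereas 48% of all genes tested lay below 0, with a median of 0.011. The values ran from -0.56 for Rad54l to 0.42 for Rad51b. This lean rested in large part on labelled knockout replicate 4, which had the lowest CPM (counts scaled to a common library size, with TMM, the trimmed mean of M values, as the scaling) of all 8 libraries for 29 of the 36 members (80.6%). The same library was lowest for 29.1% of all genes tested. Without it 25 members lay below 0, against 51.5% of all genes tested in that fit, and their median was -0.074. In that fit 3.31% of all genes tested had an unadjusted p under 0.05 (0.896% lower). The smallest edgeR adjusted p among the members was 0.9998 there. Without labelled knockout replicate 3, the library of that group in which 26 members were highest, the median was -0.33.

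**Figure D1:**
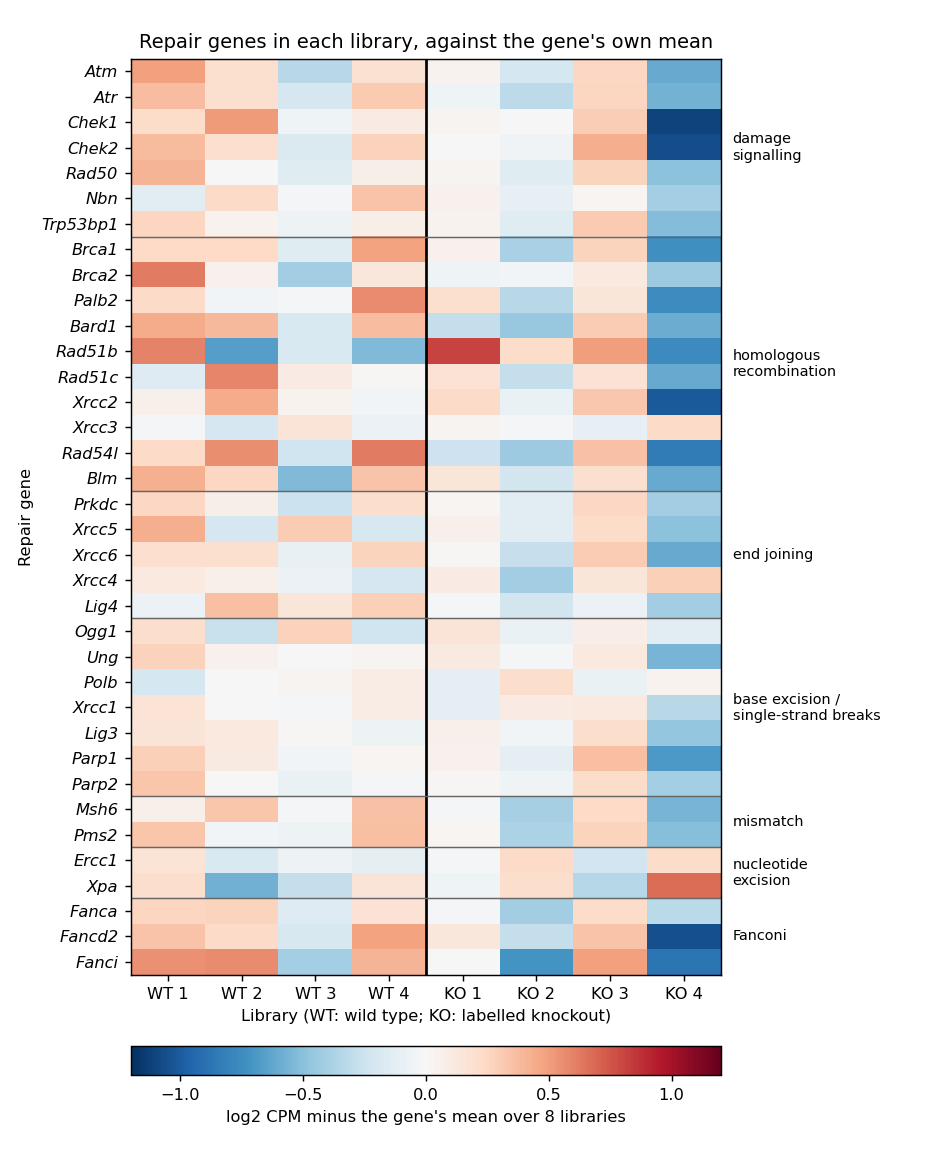
Heat map of the 36 repair genes (rows, in 7 pathways) in the 8 libraries (columns), as log2 CPM minus the gene's own mean over the libraries. Blue cells are below that mean and red cells above it; the column of labelled knockout replicate 4 is the lowest for 29 of the 36 genes, and Xpa, Xrcc3 and Xrcc4 are highest there.

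The labels were checked first at the targeted locus. Mir29a had 0 counts in every library, and Mir29b-1 had 0 counts in each wild-type library and 2, 5, 7 and 3 in the libraries labelled knockout. Mir29a and Mir29b-1 were both at 0 in wild type, so these counts cannot tell an intact gene from a deleted one. The cause of the few Mir29b-1 reads in the other group was not tested. That group is called labelled knockout throughout, and every direction below is one between labels. The neighbouring noncoding RNA Lncpint had 11 to 16 counts in each wild-type library and 1831 to 2608 in each library labelled knockout, so the 2 groups are distinct at this locus. Total counts per library were 13879472 to 17368666. The summed CPM of 12 enterocyte genes was 66268 in labelled knockout replicate 4 and 12221 to 30329 in the other 7 libraries.

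Because the microRNAs named in the labels act on messages through a short seed, the repair messages were searched for matches to it. The mature sequences are shown with the seed, bases 2 to 8, in capitals. They come from RefSeq (GRCm38.p6), on the minus strand of chromosome 6, at 31062673 to 31062694 for miR-29a-3p and 31063025 to 31063047 for miR-29b-3p, and both have the same seed.
miR-29a-3p: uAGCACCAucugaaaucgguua
miR-29b-3p: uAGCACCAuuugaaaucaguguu

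The DNA letters that pair with this seed, TGGTGCT, were looked for in the longest annotated 3' UTR of each gene (GENCODE M21, GRCm38). Of the 36 members, 7 held 1 match each (19.4%), against 15.5% of 12386 genes tested that hold it. The median length of the 3' UTRs searched was 566 bases for the members and 1170 for all genes. The 2 shares are thus not like for like, since a longer sequence has more room for a match. The 7 matches are printed 5' to 3' on the message strand, with the match in capitals, to show that the surrounding letters differ between the genes. Blm alone of these 7 has the A after the match that is known to favour miRNA targeting.
Brca1: gcacctctcagtcttTGGTGCTt
Blm: aataaacattttcttTGGTGCTa
Prkdc: aggaaatctactttaTGGTGCTg
Ung: cgcgcttggtgtgtgTGGTGCTg
Lig3: gtaactaacttcacaTGGTGCTt
Pms2: tgcggaagggtggagTGGTGCTg
Xpa: tatgggtgtgtgccaTGGTGCTc

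The matches lie at chromosome 11, 101489716 to 101489722 (Brca1), and chromosome 7, 80455097 to 80455103 (Blm), both on the minus strand. Those on the plus strand lie at chromosome 16, 15842079 to 15842085 (Prkdc), chromosome 11, 82803564 to 82803570 (Lig3), and chromosome 5, 114139085 to 114139091 (Ung) and 143933249 to 143933255 (Pms2). The Xpa match lies on the minus strand of chromosome 4, 46155507 to 46155513. Members with a match had a median log2 fold change of -0.16 and the 29 without one -0.23. Over all genes searched the medians were 0.025 with a match and 0.0044 without. Of the 7 genes, Xpa alone had a value above 0, at 0.26, and the others lay between -0.37 (Brca1) and -0.093 (Lig3). These are descriptions of sequence, and no miRNA binding was measured. How much mature miRNA with this seed remained in either group was not measured either.

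Among the members, levels per gene length spanned more than an order of magnitude. The order depends on the deposited gene lengths, such as 23629 bases for Atr, whose match to the transcripts made was not tested. The deposited FPKM (fragments scaled by gene length and library size) averaged 13.7 over the 8 libraries for Parp1, the enzyme that marks strand breaks with poly(ADP-ribose), 11.5 for Msh6 and 8.83 for Parp2. Next were Xrcc3 at 7.73, Xrcc6 at 7.30 and Nbn at 7.23. The lowest were the recombination genes Rad51c at 0.543, Xrcc2 at 0.773 and Palb2 at 0.985. The median member stood at 2.40 FPKM and the median gene tested at 4.70. Of the 10 recombination genes 9 stood at or below 2.40, Xrcc3 being the exception. The ranges of the first 2 overlapped, since Parp1 ran from 8.397 to 17.3 over the libraries and Msh6 from 7.71 to 14.4. Within libraries Parp1 stood above Msh6 in all but wild-type replicate 4, where they were at 13.7 and 14.4.

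**Figure D2:**
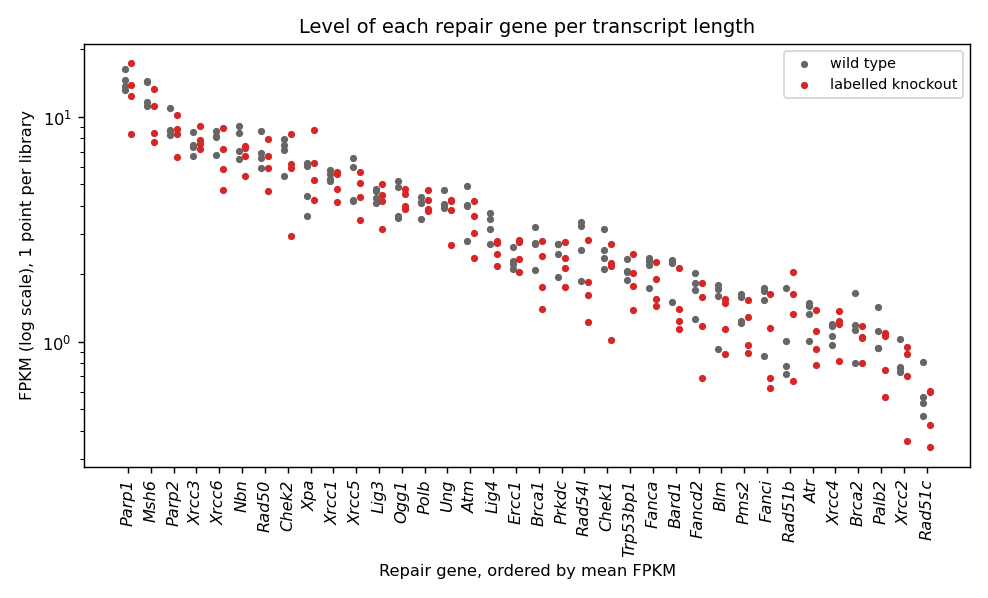
FPKM of each repair gene (log axis), 1 point per library, grey for wild type and red for labelled knockout, ordered by the mean over all 8 libraries from Parp1 at 13.7 to Rad51c at 0.543. The points of the 2 groups overlap for every gene.

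The damage kinases and their partners sense breaks and stalled forks and relay the signal to the cell cycle. All 7 members had log2 fold changes below 0, with a median of -0.26, and none passed the test. Atr (ENSMUSG00000032409, chromosome 9, 95857597 to 95951781, plus strand), the kinase of stalled replication forks, was at 35.6, 31.5, 24.0 and 34.4 CPM in wild-type replicates 1 to 4. In labelled knockout replicates 1 to 4 it was at 26.6, 22.2, 32.9 and 18.6 CPM. The groups overlapped, since labelled knockout replicate 3 lay above 2 wild-type libraries and wild-type replicate 3 lay below 2 libraries of the other group. Its log2 fold change was -0.32 (SE 0.20, edgeR adjusted p = 0.994). Leaving out labelled knockout replicate 4 gave -0.20.

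Nbn (ENSMUSG00000028224, chromosome 4, 15957925 to 15992589, plus strand) encodes a subunit of the complex that first binds broken ends. Wild-type replicates 1 to 4 had 16.8, 21.4, 18.01 and 23.2 CPM, and labelled knockout replicates 1 to 4 had 19.0, 17.1, 18.6 and 13.8. Only labelled knockout replicate 4 lay below the whole wild-type range. Its log2 fold change was -0.21 (SE 0.16, edgeR adjusted p = 0.994). Rad50, of the same complex, had -0.15 (SE 0.18). Atm, the kinase of double-strand breaks, had -0.26 (SE 0.21), and Trp53bp1, a chromatin-bound mediator that favours end joining, had -0.13 (SE 0.17).

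The checkpoint kinases downstream showed the deepest drop in 1 library. Chek1, the effector of Atr, was at 9.88 to 14.7 CPM in the wild-type libraries, at 10.2 to 12.7 in labelled knockout replicates 1 to 3 and at 4.70 in replicate 4. Chek2, the effector of Atm, was at 16.5 to 24.3, at 18.1 to 25.2 and at 8.85 in the same order. Both were thus within or above the wild-type range in 3 of the 4 libraries labelled knockout. The log2 fold change of Chek1 was -0.32 (SE 0.28) with all libraries and -0.093 without labelled knockout replicate 4. For Chek2 these were -0.26 (SE 0.28) and -0.031.

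Homologous recombination had 10 members, 8 of them below 0, with a median of -0.27. Rad54l (ENSMUSG00000028702, chromosome 4, 116094264 to 116123690, minus strand), a motor protein that helps the recombination filament to invade its template, had the lowest estimate of all members. It was at 20.1, 25.3, 14.4 and 26.3 CPM in wild-type replicates 1 to 4 and at 14.3, 12.6, 21.9 and 9.47 in labelled knockout replicates 1 to 4. Labelled knockout replicate 3 lay within the wild-type range, and the other 3 lay below it, replicate 1 by a narrow margin. The log2 fold change was -0.56 (SE 0.27, edgeR adjusted p = 0.994), with a 95% interval of -1.18 to 0.059. It was -0.82 without labelled knockout replicate 3 and -0.40 without replicate 4. Exons of Rad54l share 15.4% of their bases with Lrrc41 on the opposite strand, which had a log2 fold change of -0.018.

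Bard1 (ENSMUSG00000026196, chromosome 1, 71027498 to 71103146, minus strand), the partner of Brca1 in a ubiquitin ligase, followed a similar order of libraries. Its CPM were 13.4, 12.9, 8.60 and 12.7 in wild-type replicates 1 to 4 and 8.01, 7.09, 12.1 and 6.42 in labelled knockout replicates 1 to 4. Wild-type replicate 3 stood far below the other 3 of its group, and labelled knockout replicate 3 lay within the wild-type range. The log2 fold change was -0.49 (SE 0.24, edgeR adjusted p = 0.994), with a 95% interval of -1.03 to 0.041. Brca1 itself was at 18.01 to 27.9 CPM in the wild-type group and 11.9 to 24.1 in the group labelled knockout, with -0.37 (SE 0.23). Palb2, which bridges Brca1 and Brca2, had -0.35 (SE 0.25), and Brca2, which loads the recombinase, had -0.23 (SE 0.22). The Brca2 value depended on wild-type replicate 1, at 23.0 CPM against 11.1 to 16.3 in the other 3, and was -0.027 without it.

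The paralogs that assist the recombinase did not share a direction. Rad51b had the highest estimate of the 36, 0.42 (SE 0.39), with 2.70 to 6.62 CPM in the wild-type group and 2.51 to 7.72 in the group labelled knockout. Its 95% interval of -0.46 to 1.30 was the only one of the 36 that reached a 2-fold rise. Without wild-type replicate 1 its value was 0.77, and without labelled knockout replicate 1 it was 0.20. Rad51c had -0.28 (SE 0.29) on 19 to 57 raw counts per library, and Xrcc2 had -0.19 (SE 0.30), turning to 0.032 without labelled knockout replicate 4. Blm, a helicase that dissolves joined chromatids, had -0.26 (SE 0.25).

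Xrcc3 (ENSMUSG00000021287, chromosome 12, 111803192 to 111813873, minus strand), another of these paralogs and the most abundant recombination member per length, was among the steadiest genes. It was at 21.1, 18.6, 23.7 and 20.3 CPM in wild-type replicates 1 to 4 and at 21.9, 21.1, 19.9 and 25.1 in labelled knockout replicates 1 to 4. Here labelled knockout replicate 4 was the highest of the 8. Its log2 fold change was 0.071 (SE 0.13, 95% interval -0.21 to 0.36, edgeR adjusted p = 0.994).

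Of the 5 end joining genes, 4 lay below 0, and the median was -0.18. Lig4 (ENSMUSG00000049717, chromosome 8, 9969049 to 9977686, minus strand), the ligase of this pathway, was at 14.3, 19.4, 16.7 and 18.4 CPM in wild-type replicates 1 to 4. In labelled knockout replicates 1 to 4 it was at 14.8, 12.9, 14.4 and 11.3 CPM. Only wild-type replicate 1 kept the groups from standing apart. The log2 fold change was -0.37 (SE 0.15, 95% interval -0.70 to -0.035), with an unadjusted p of 0.0339 and an adjusted p of 0.994 by edgeR. Without labelled knockout replicate 4 it was -0.30.

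Xrcc6 (ENSMUSG00000022471, chromosome 15, 81987835 to 82040085, plus strand) and Xrcc5 encode the 2 subunits of the Ku ring that threads onto broken ends. Xrcc6 was at 37.1, 37.0, 30.4 and 38.9 CPM in wild-type replicates 1 to 4 and at 32.6, 26.6, 40.0 and 21.1 in labelled knockout replicates 1 to 4. Its group labelled knockout thus held both the highest and the lowest library. For Xrcc6 the log2 fold change was -0.25 (SE 0.19, edgeR adjusted p = 0.994), and that of Xrcc5 was -0.18 (SE 0.21). Prkdc, the kinase that Ku recruits, had -0.13 (SE 0.17) and was -0.021 without labelled knockout replicate 4. Xrcc4, the scaffold of Lig4, had 0.068 (SE 0.21) and turned to -0.018 without that library.

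Base excision and single-strand break repair, which deals with small base lesions and nicks, had the smallest differences. All 7 members lay within 0.2 of 0, with a median of -0.10, which became 0.013 once labelled knockout replicate 4 was left out. Parp1 (ENSMUSG00000026496, chromosome 1, 180568924 to 180601254, plus strand) was at 87.7, 77.3, 70.3 and 73.2 CPM in wild-type replicates 1 to 4 and at 74.2, 66.4, 92.2 and 44.5 in labelled knockout replicates 1 to 4. Labelled knockout replicates 3 and 4 were the highest and the lowest of the 8. The log2 fold change was -0.15 (SE 0.20, edgeR adjusted p = 0.994) and turned to 0.013 without replicate 4.

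Ung (ENSMUSG00000029591, chromosome 5, 114130386 to 114139323, plus strand), the glycosylase that removes uracil from DNA, was at 26.3, 22.5, 21.6 and 22.2 CPM in wild-type replicates 1 to 4. It was at 23.4, 21.4, 23.6 and 14.7 CPM in labelled knockout replicates 1 to 4. Xrcc1 (ENSMUSG00000051768, chromosome 7, 24546289 to 24573440, plus strand), the scaffold of single-strand break repair, was at 34.3, 30.8, 30.4 and 32.8 and at 28.2, 32.8, 33.2 and 24.4 CPM in the same order. In both genes labelled knockout replicate 4 was the lowest of the 8. One other library of its group lay below the wild-type range, replicate 1 for Xrcc1 and, by a narrow margin, replicate 2 for Ung. The log2 fold changes were -0.16 (SE 0.16) for Ung and -0.11 (SE 0.13) for Xrcc1.

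The other members of this pathway were Parp2, a second break-sensing polymerase of poly(ADP-ribose), at -0.10 (SE 0.16), and Lig3, the ligase that partners Xrcc1, at -0.093 (SE 0.15). Both turned, to 0.0039 and 0.028, without labelled knockout replicate 4. Polb, the gap-filling polymerase, had 0.041 (SE 0.13), and Ogg1, the glycosylase of oxidised guanine, had -0.0066 (SE 0.18). Exons of Lig3 share 25.1% of their bases with Rffl on the opposite strand, the largest such share among the members. Ogg1 shares 10.6% with Camk1 and, in damage signalling, Trp53bp1 shares 15% with Tubgcp4, both on the opposite strand. How the counter treated strand is unknown here, so reads of shared bases cannot be assigned to 1 of the 2 genes.

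Both mismatch repair members had estimates below 0. Msh6 (ENSMUSG00000005370, chromosome 17, 87975062 to 87990892, plus strand), which recognises single mispaired bases, was at 51.6, 62.5, 49.1 and 63.1 CPM in wild-type replicates 1 to 4. It was at 49.0, 37.4, 58.3 and 33.5 CPM in labelled knockout replicates 1 to 4. Pms2 (ENSMUSG00000079109, chromosome 5, 143909964 to 143933968, plus strand), the nuclease subunit that nicks the new strand, was at 13.0, 10.1, 9.88 and 13.3 and at 10.5, 7.94, 12.5 and 7.204 CPM in the same order. In both, labelled knockout replicates 2 and 4 lay below every wild-type library, and for Msh6 so did replicate 1, by a narrow margin. Log2 fold changes were -0.34 (SE 0.18) for Msh6 and -0.28 (SE 0.21) for Pms2, both with edgeR adjusted p = 0.994.

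Nucleotide excision repair, which cuts out bulky lesions, was the only pathway in which every member lay above 0, with 2 members. Xpa (ENSMUSG00000028329, chromosome 4, 46155347 to 46196311, minus strand), which verifies the lesion, was at 12.01, 6.90, 8.48 and 11.6 CPM in wild-type replicates 1 to 4 and at 9.99, 11.97, 8.13 and 16.6 in labelled knockout replicates 1 to 4. Ercc1 (ENSMUSG00000003549, chromosome 7, 19344778 to 19356524, plus strand), a subunit of the incision nuclease, was at 8.39, 6.58, 7.19 and 6.93 and at 7.35, 8.78, 6.36 and 8.77 CPM in the same order. Xpa was highest in labelled knockout replicate 4, the library in which most other members were lowest. Log2 fold changes were 0.26 (SE 0.26) for Xpa and 0.10 (SE 0.18) for Ercc1, and 0.045 for each without that library. Xpa shares 4.07% of its exon bases with Ncbp1 on the opposite strand, which had -0.25.

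The 3 Fanconi genes had a median of -0.36. Fanca (ENSMUSG00000032815, chromosome 8, 123268300 to 123318576, minus strand), a subunit of the core complex, was at 20.5, 20.6, 15.3 and 19.2 CPM in wild-type replicates 1 to 4 and at 16.8, 12.7, 19.9 and 13.6 in labelled knockout replicates 1 to 4. Fanci (ENSMUSG00000039187, chromosome 7, 79391929 to 79450264, plus strand), one of the pair that the core complex modifies with ubiquitin, was at 9.86, 10.03, 5.03 and 8.95 and at 6.69, 4.03, 9.49 and 3.60 CPM in the same order. Wild-type replicate 3 was the lowest of its group in both, and labelled knockout replicates 2 and 4 lay below it. The log2 fold changes were -0.26 (SE 0.17) for Fanca and -0.50 (SE 0.35, 95% interval -1.28 to 0.28) for Fanci, with edgeR adjusted p = 0.994. Fancd2, its partner in that pair, had -0.36 (SE 0.29), and -0.15 without labelled knockout replicate 4, where it was at 5.48 CPM against 9.43 to 16.2 in the other 7 libraries. Exons of Fanci share 16% of their bases with Polg on the opposite strand, which had 0.022. Those of Fanca share 10.5% with Zfp276 on the opposite strand, which had 0.28.

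**Figure D3:**
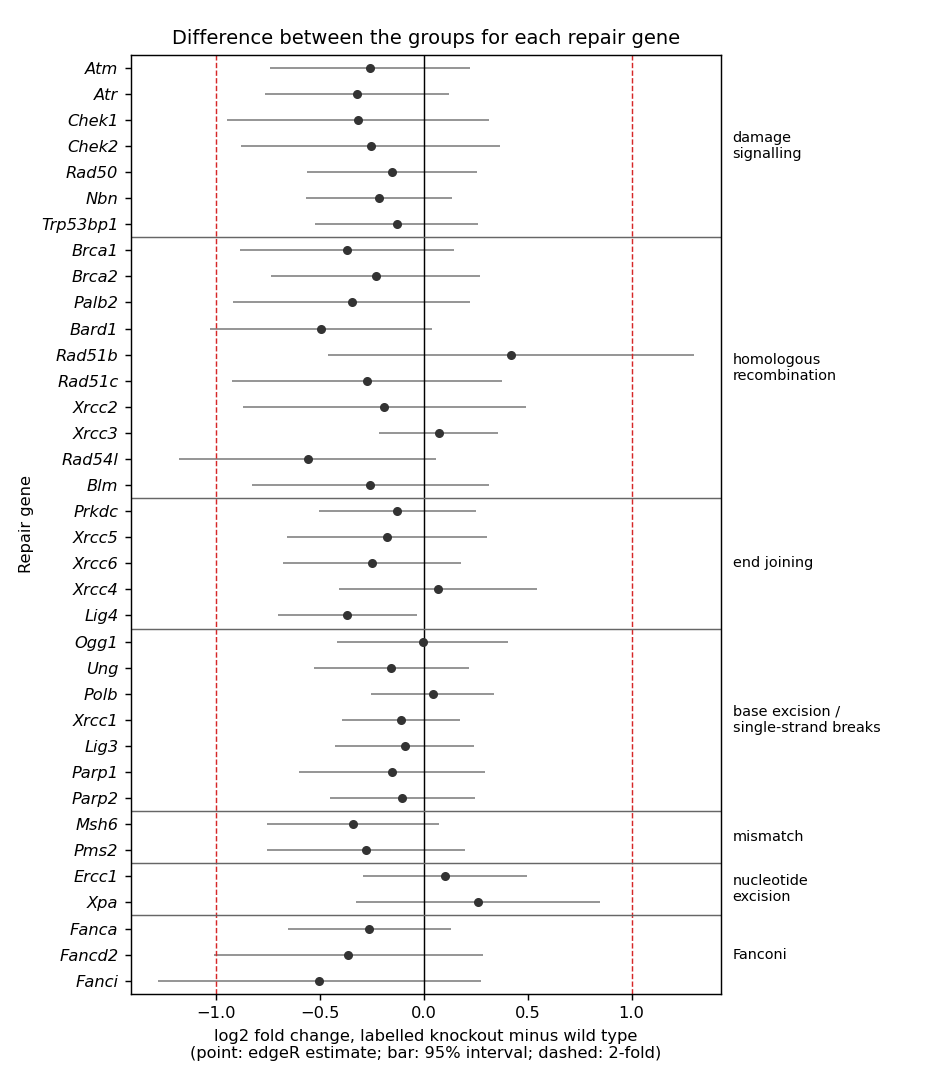
Log2 fold change (labelled knockout minus wild type) of each repair gene with its 95% interval from the edgeR fit, in 7 pathways; dashed lines mark a 2-fold difference. 35 of the 36 intervals hold 0, Lig4 being the exception before adjustment.

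The intervals set what size of difference these 8 libraries allow. They excluded a 2-fold fall for 32 of the 36 members, the exceptions being Bard1, Rad54l, Fancd2 and Fanci. They excluded a 2-fold rise for 35, the exception being Rad51b. Standard errors on the log2 scale ran from 0.13 to 0.39. That no member passed the test does not show that the groups were alike.

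The rest of each pathway was read from 106 further repair genes. None of the 106 passed the test in either direction (DESeq2 and limma-voom also called 0). By edgeR 3 had an unadjusted p under 0.05, all lower in the group labelled knockout, against 0.832% of all genes tested being lower and 2.7% in either direction. Of the 106, 81 lay below 0 (76.4%, against 48% of all genes tested), with a median of -0.098. Labelled knockout replicate 4 was the lowest library for 70 (66%), against 29.1% of all genes tested. Without that library their median was -0.015.

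By pathway, the further genes of recombination had a median of -0.18 with 20 of 24 below 0, and those of the Fanconi pathway -0.15 with 11 of 14. Rad54b, a relative of Rad54l, had -0.54 (SE 0.24), and Rpa1, of the protein that coats single strands, had -0.37 (SE 0.16). Usp1, which removes ubiquitin from Fancd2, had -0.27 (SE 0.16), and Fancg, a core complex subunit, -0.25 (SE 0.16). Damage signalling had -0.13 with 16 of 18 below 0, where Clspn, the adaptor between Atr and Chek1, had -0.51 (SE 0.22) and Topbp1, an activator of Atr, -0.34 (SE 0.21).

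Excision and end joining lay nearer to 0. Base excision had a median of -0.083 with 12 of 17 below 0, with Lig1, the replicative ligase, at -0.40 (SE 0.16) and Tdp1, which frees trapped topoisomerase, at -0.29 (SE 0.26). Mismatch repair had -0.080 with 5 of 6 below 0, with Pcna, the sliding clamp, at -0.31 (SE 0.20). Nucleotide excision had -0.078 with 13 of 19 below 0, with Ercc8 at -0.22 (SE 0.16) and Rad23b at -0.15 (SE 0.12), both of lesion recognition. End joining had -0.0081 with 4 of 8 below 0, with Nhej1 at -0.18 (SE 0.25) and Aplf at -0.14 (SE 0.21). Each of the further genes named here had an edgeR adjusted p of 0.994.

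Genes of dividing cells moved with the repair genes from library to library. In bulk RNA, fewer cells of a type and less RNA per cell cannot be told apart. The mean log2 CPM of the 36 repair genes was 4.19, 4.06, 3.86 and 4.10 in wild-type replicates 1 to 4 and 3.99, 3.79, 4.15 and 3.47 in labelled knockout replicates 1 to 4. That of 22 S-phase genes was 5.18, 5.29, 4.98 and 5.22, and 4.92, 4.77, 5.23 and 4.31, in the same order. Both lists were lowest in labelled knockout replicate 4, next lowest in labelled knockout replicate 2, and at the wild-type level in replicate 3.

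The 18 mitosis genes had means of 5.30 to 5.90 in the wild-type group and of 5.54, 5.28, 5.97 and 4.48 in labelled knockout replicates 1 to 4. The 12 enterocyte genes, of the absorptive cells that no longer divide, ran the other way at both ends, with 11.7 in labelled knockout replicate 4 and 9.54 in replicate 3, against 9.93 to 10.9 in the other 6 libraries. All 22 S-phase genes lay below 0, with a median of -0.34, and -0.18 without labelled knockout replicate 4, and none passed the test. Of the mitosis genes 16 lay below 0, with a median of -0.25, and -0.026 without that library. The part of cell composition in the repair values was not tested.

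**Figure D4:**
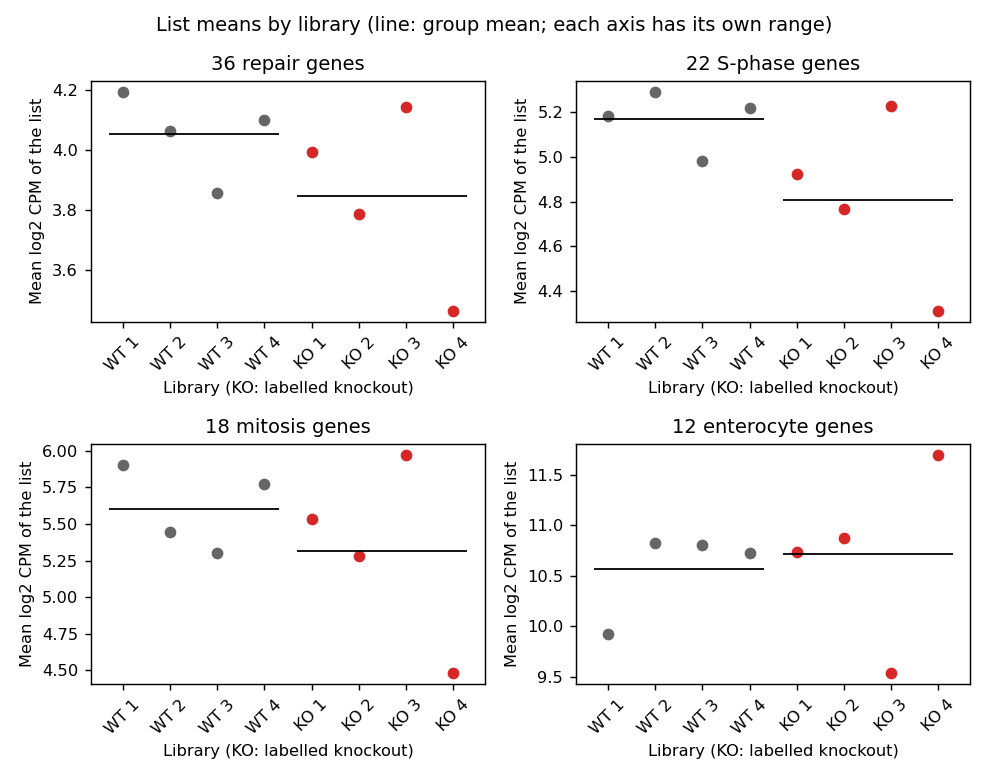
Mean log2 CPM of 4 gene lists in each library, grey for wild type and red for labelled knockout, with the group mean as a line; each panel has its own axis range. Labelled knockout replicate 4 is the lowest library for the repair, S-phase and mitosis genes (3.47, 4.31 and 4.48) and the highest for the enterocyte genes (11.7).

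The S-phase and mitosis genes with the smallest p had edgeR adjusted p = 0.994. For Uhrf1, which recruits the enzyme that copies DNA methylation, the log2 fold change was -0.48 (SE 0.20). For Gins1, of the replicative helicase, it was -0.51 (SE 0.22), and its libraries labelled knockout, at 4.54 to 8.30 CPM, all lay below the wild-type range of 8.54 to 10.96. Mki67, the proliferation marker, had -0.40 (SE 0.26) and Cenpf, a kinetochore gene, -0.38 (SE 0.27). The 14 targets of p53, the transcription factor that the damage kinases activate, did not share this direction. Of these, 10 lay above 0, with a median of 0.28, and none passed the test. Their mean log2 CPM was 5.02 and 4.95 in labelled knockout replicates 1 and 2. In labelled knockout replicates 3 and 4 it was 4.32 and 4.31, within the wild-type range of 4.25 to 4.67. Trp53inp1, a p53-induced stress gene, was at 23.7 to 34.1 CPM in the wild-type group and 39.0 to 59.2 in the group labelled knockout, with 0.93 (SE 0.17, edgeR adjusted p = 0.758), and Btg2, an antiproliferative gene, had 0.73 (SE 0.31, edgeR adjusted p = 0.994).

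Markers of other cells in the crypt preparation were present at low to moderate levels. The summed CPM of 11 T cell genes was 154 to 421 in the wild-type group and 122 to 270 in the group labelled knockout. For 8 B and plasma cell genes it was 20.6 to 203 and 23.6 to 66.8, and for 9 myeloid genes 22.5 to 39.5 and 22.5 to 26.3. The 9 fibroblast and muscle genes summed to 0.942 to 33.3 and 2.59 to 15.4, and the 5 endothelial genes to 3.49 to 5.44 and 3.54 to 4.49. The 5 red blood cell genes summed to 55.1 in labelled knockout replicate 4 and to 2.69 to 15.03 in the other 7 libraries. These ranges overlapped between the groups for each list. Of the 11 T cell genes 10 had log2 fold changes below 0, with a median of -0.43. All 7 B and plasma cell genes tested lay below 0, with a median of -0.87. Of 8 myeloid genes tested 7 lay below 0, and all 4 red blood cell genes tested lay above 0. None of these genes passed the test. No marker was at 0 in all 8 libraries, but Cdh5 and Kdr of the endothelium and Pdgfra of fibroblasts were at 0 in several. The part of these cells in the repair values was not tested.

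Among the other epithelial cells of the crypt, the stem cell list also stood lowest in labelled knockout replicate 4. The mean log2 CPM of its 12 genes was 5.72 there and 6.17 to 6.75 in the other 7 libraries. Lgr5, the defining marker of crypt base stem cells, was at 43.4 to 98.4 CPM in all 8 libraries. The summed CPM of 9 genes of Paneth cells, the antimicrobial cells of the crypt base, was 20862 to 27627 in the wild-type group. It was 44314, 60616, 34986 and 19028 in labelled knockout replicates 1 to 4, and all 9 genes had log2 fold changes above 0, with none past the test. The 8 genes of tuft cells, the chemosensory cells of the gut, summed to 75.2 to 499 CPM in the wild-type group and 111 to 327 in the group labelled knockout. All 7 tuft genes tested lay below 0, with none past the test. The part of these cells in the repair values was not tested either.

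Promoters were also searched for letters bound by the E2F family, transcription factors of the S phase. RefSeq windows (GRCm38.p6) from 250 bases before to 50 bases after the start site were at hand for 30 of the 36 members. The motifs were TTTGGCGC, TTTCCCGC, TTTCGCGC and TTTGCCGC on either strand. They were present for 6 of the 30 members (20%), against 4.57% of 10505 genes tested with a window. The cell cycle homology element TTTGAA, on either strand, was present for 2 of 30 (6.67%), against 14.8%. Each E2F match is printed on the gene's strand, with its letters in capitals and 11 bases on either side.
Bard1: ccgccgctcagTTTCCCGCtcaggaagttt
Brca2: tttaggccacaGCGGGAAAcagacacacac
Chek2: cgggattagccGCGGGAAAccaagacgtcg
Msh6: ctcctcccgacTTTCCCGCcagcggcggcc
Rad51c, first start site: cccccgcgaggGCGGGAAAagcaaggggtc
Rad51c, second start site: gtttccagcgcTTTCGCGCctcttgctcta
Xrcc6: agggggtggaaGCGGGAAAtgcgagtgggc

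These windows lie at chromosome 1, 71103163 to 71103192 (Bard1), chromosome 5, 150522442 to 150522471 (Brca2) and 110839820 to 110839849 (Chek2), and chromosome 17, 87975054 to 87975083 (Msh6). Those of Rad51c lie on chromosome 11 at 87404941 to 87404970 and 87404477 to 87404506, and that of Xrcc6 on chromosome 15 at 82016312 to 82016341. All 6 genes with a match had log2 fold changes below 0, with a median of -0.27. Of the 24 without one, 19 lay below 0, with a median of -0.17. In labelled knockout replicate 4 the 6 genes were lower than their mean over the other 7 libraries by a median difference of -0.69 log2 CPM, with values from -1.22 to -0.49. For the 24 the median difference was -0.59, with values from -1.26 to 0.77. The difference between these sets was not tested. Chek1, with a difference of -1.26, had no full match in its window. The window ends in gcgggaa, which lacks only the last letter of the motif GCGGGAAA, so a match across that edge could not be seen.

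**Figure D5:**
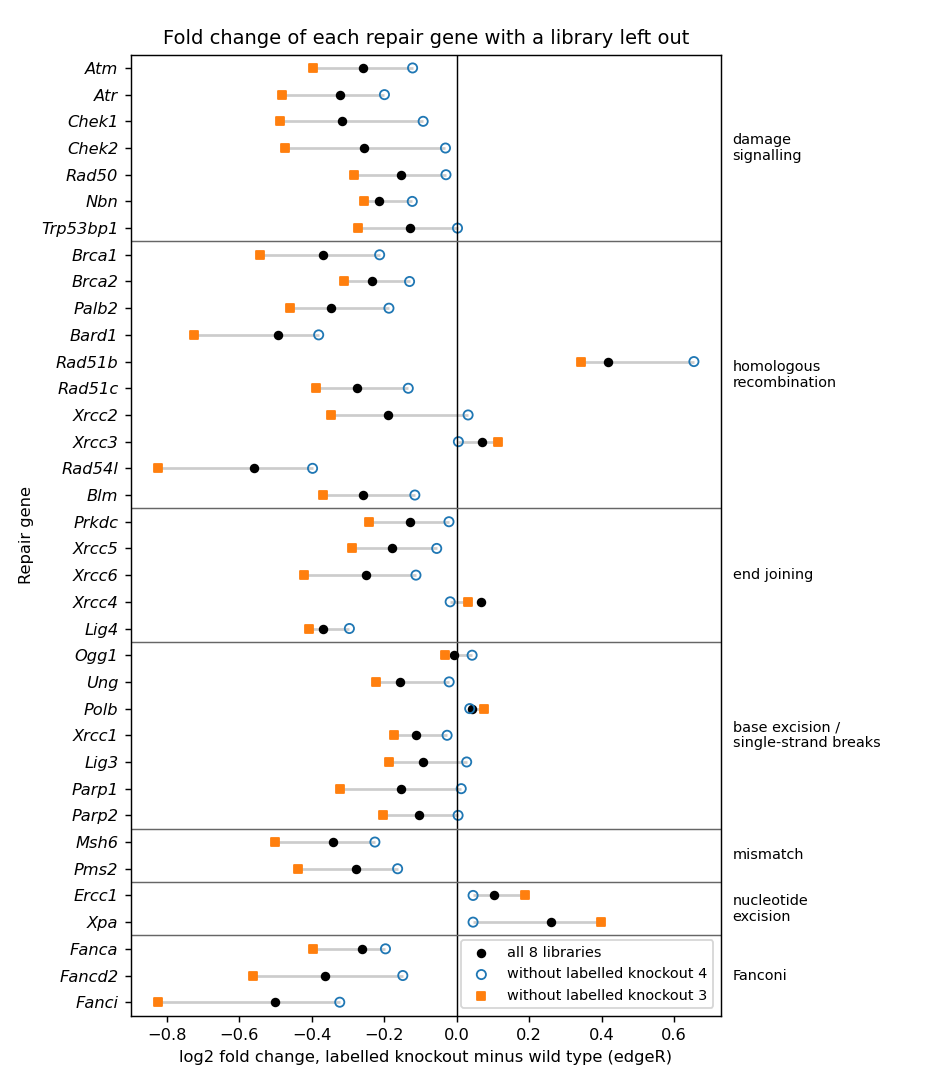
Log2 fold change (labelled knockout minus wild type) of each repair gene from edgeR with all 8 libraries (black), without labelled knockout replicate 4 (open blue) and without labelled knockout replicate 3 (orange squares). Most genes move toward 0 without replicate 4 and away from it without replicate 3, and 7 change sign without replicate 4.

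Which libraries were kept decided the size of nearly every estimate. Without labelled knockout replicate 4, 7 of the 36 members changed sign, namely Trp53bp1, Xrcc2, Xrcc4, Ogg1, Lig3, Parp1 and Parp2. The other 29 kept their sign. Without labelled knockout replicate 3, 9 members had an unadjusted p under 0.05 and were lower, against 3.64% of all genes tested being lower at that level in the same fit (8.62% in either direction). They were Atr, Brca1, Bard1, Rad54l, Xrcc6, Lig4, Msh6, Fanca and Fanci, each with edgeR adjusted p = 0.576. The count of members lowest in labelled knockout replicate 4 was 32 when CPM were scaled by total counts and 28 in the deposited FPKM, against 29 with TMM.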

How the data were processed

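Counts per gene were deposited by the authors for 8 libraries, per the file headers. Alignment software HISAT2 and the package DESeq2 appear, versions unstated, in the list of tools per the submitters' processing notes. Read counter, strand setting, annotation, build: not given in the sources used here. Deposited FPKM are counts over gene length scaled by 1 factor per library, as checked on the values. The log2 fold changes, p-values and group means (a signal) of the authors' deposited table were not used. A second deposited table, a subset of genes, was not analysed here. Coordinates were identical to GENCODE M21 (GRCm38) for 35 of 36 members.

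The main test was edgeR 4.0.16 under R 4.3.3 (quasi-likelihood, robust, TMM, filterByExpr) over all 8 libraries with no covariate. Adjustment was by Benjamini-Hochberg over all genes tested, at a threshold of 0.05. SEs are the absolute log2 fold change over the square root of F, and 95% intervals use that SE with the fit's degrees of freedom. Log2 CPM used a prior count of 2. Alternatives used DESeq2 1.42.0, limma 3.58.1, other scaling and filters, a replicate block, and each library left out. The tests were checked on simulated data. Groups and replicates follow the sample titles. Replicates of 1 group differed beyond sampling noise (lowest chi-square over its degrees of freedom 32.3). Depth was 13879472 to 17368666 counts per library.

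Values in every library are given, per pathway, for the 2 members with the smallest p and the one with the highest FPKM. Of the further repair lists and the S-phase, mitosis and p53 target lists, the 2 genes with the smallest p are named, since none passed; 1 of them is not reported here. Chek1, Chek2, Brca1, Brca2, Rad51b and Fancd2 are given in more detail after their values were seen. The members and lists were chosen with earlier results of these data known.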

Additional observations from a re-analysis of the deposited data

Results flagged for a closer look

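Within the groups of 4 libraries, 3 values stood apart from the other 3 by Dixon's criterion at the 95% level, among 88 groups examined, where chance alone flags about 1 in 20. Bard1 was low in wild-type replicate 3, at 8.60 CPM against 12.7 to 13.4 in the other wild-type libraries. Parp2 was high in wild-type replicate 1, at 40.2 CPM against 30.4 to 31.9. The mean log2 CPM of the 3 Fanconi genes was low in wild-type replicate 3, at 3.22 against 3.83 to 3.86.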

How the results depend on the processing

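The count of repair genes past the threshold was 0 under every alternative run, as was that of the 106 further repair genes. The count over all genes was 3, and 22 with DESeq2, 5 without a filter and 2 to 3 when single libraries were left out. The median of the 36 members kept its sign in all 14 alternatives; leaving out 1 library at a time gave -0.33 to -0.074. Ogg1 changed sign with RLE size factors (0.00013), limma-voom (0.0077) and the replicate block (0.0098). When single libraries were left out, the lowest and highest log2 fold changes of the members that changed sign were -0.092 and 0.096 for Ogg1, -0.032 and 0.082 for Polb, -0.27 and 0.0023 for Trp53bp1, -0.35 and 0.032 for Xrcc2, -0.018 and 0.20 for Xrcc4, -0.19 and 0.028 for Lig3, -0.32 and 0.013 for Parp1 and -0.20 and 0.0039 for Parp2; the cause was not tested. Same-numbered libraries of the 2 groups did not vary together (correlations -0.39 to 0.075), so no pairing by number was seen. These correlations cannot exclude a shared litter, day or batch, which the labels do not give. The replicate block gave 2 genes in all, 0 repair genes and a members' median of -0.23. The filter of at least 5 CPM in 4 libraries kept 32 of the 36 members.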
